A study of Saccharomyces cerevisiae with 2 samples.

Results

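The tricarboxylic acid cycle enzymes described here are 10 nuclear genes of budding yeast, Saccharomyces cerevisiae, out of 4579 genes in the deposited table. They were taken by gene identifier and not by any measured value, and all 10 were found: CIT1, ACO1, IDH1, IDH2, KGD1, KGD2, LSC1, LSC2, FUM1 and MDH1. The series, whose title names the prediction of elongation rate, holds 1 library of ribosome footprints and 1 of total RNA from strain yJC2229. The strain grew at 24 °C in YPD of pH 6.5 with 2% glucose to mid-log phase and had no treatment before lysis in cycloheximide, and no genotype is given beyond the strain name. A footprint is the piece of mRNA that a ribosome shields from nuclease. Footprints were taken from the 80S fraction of a sucrose gradient.

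The cycle runs in the mitochondrial matrix. It oxidizes acetyl-CoA to carbon dioxide, passes the electrons to NAD and ubiquinone, and supplies 2-oxoglutarate and oxaloacetate for amino acid synthesis. Yeast on plentiful glucose ferments, and expression of many genes of the cycle is then held down by glucose repression. The enzymes are made in the cytosol and most are imported through a cleaved presequence. All 10 coding sequences are as long as the annotated gene, so none holds an intron in this annotation, and none overlaps another annotated gene.

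The footprint library holds 3756929 footprints in the listed genes. The abundance column of the table is headed FPKM, but its values behave as counts scaled to a library of 21771294 reads, undivided by length, and 21353772 of these reads lie in the listed genes. Its header names no library, so a ratio of footprints to reads equals translational efficiency only if the column was made from total RNA. Each kind of library has 1 sample, so no comparison has a replicate check and no p-value is given. The 95% intervals cover counting error only, and since no molecular identifiers are described, amplified reads may not be independent molecules.

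The entry to the cycle is citrate synthase, CIT1 (YNR001C, chromosome XIV, 629622 to 631061, minus strand, sacCer3, as are all positions), which joins acetyl-CoA to oxaloacetate. It had 923 footprints and 7761 reads over 480 codons. Aconitase, ACO1 (YLR304C, chromosome XII, 735212 to 737548, minus strand), turns citrate into isocitrate and also binds mitochondrial DNA. It had 1973 footprints and 35660 reads over 779 codons. Both counts were the highest among the 10 genes.

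NAD-dependent isocitrate dehydrogenase holds equal numbers of a regulatory subunit, IDH1 (YNL037C, chromosome XIV, 557920 to 559002, minus strand), and a catalytic subunit, IDH2 (YOR136W, chromosome XV, 580250 to 581359, plus strand). IDH1 had 851 footprints and 4742 reads over 361 codons. IDH2 had 1425 footprints and 9151 reads over 370 codons, so the catalytic subunit was the higher in both measures.

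The 2-oxoglutarate dehydrogenase complex combines the decarboxylase KGD1 (YIL125W, chromosome IX, 122689 to 125733, plus strand) with the succinyltransferase KGD2 (YDR148C, chromosome IV, 753675 to 755066, minus strand). KGD1 had 312 footprints and 10253 reads over 1015 codons. KGD2 had 676 footprints and 3342 reads over 464 codons. KGD1 thus had the fewest footprints of the 10 genes and the second most reads.

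Succinyl-CoA ligase, which makes ATP in the cycle, pairs the alpha subunit LSC1 (YOR142W, chromosome XV, 593057 to 594046, plus strand) with the beta subunit LSC2 (YGR244C, chromosome VII, 978036 to 979319, minus strand). LSC1 had 996 footprints and 5359 reads over 330 codons. LSC2 had 398 footprints and 3024 reads over 428 codons, fewer of each than LSC1 despite its greater length.

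Fumarase, FUM1 (YPL262W, chromosome XVI, 47336 to 48802, plus strand), hydrates fumarate to malate and is found in both mitochondria and cytosol. It had 840 footprints and 6517 reads over 489 codons. Mitochondrial malate dehydrogenase, MDH1 (YKL085W, chromosome XI, 279123 to 280127, plus strand), closes the cycle by making oxaloacetate. It had 404 footprints and 1833 reads over 335 codons, the fewest reads of the 10 genes.

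Per length, footprints were densest on IDH2 and sparsest on KGD1, a 12.5-fold range. IDH2 had 3.85 footprints per codon (3.65 to 4.06), LSC1 3.02 (2.83 to 3.21), ACO1 2.53 (2.42 to 2.65) and IDH1 2.36 (2.20 to 2.52). CIT1 followed at 1.92 (1.80 to 2.05), FUM1 at 1.72 (1.60 to 1.84), KGD2 at 1.46 (1.35 to 1.57) and MDH1 at 1.21 (1.09 to 1.33). LSC2 had 0.930 (0.841 to 1.03) and KGD1 0.307 (0.274 to 0.344). The intervals of neighbours overlapped for ACO1 and IDH1 and for CIT1 and FUM1, and for no other neighbours in this order. Against a median of 0.399 footprints per codon over all 4579 genes, 9 of the 10 enzymes lay above and KGD1 below.

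Reads per codon spanned an 8.37-fold range with another order. ACO1 led with 45.8 reads per codon (45.3 to 46.3), ahead of IDH2 at 24.7 (24.2 to 25.2), LSC1 at 16.2 (15.8 to 16.7) and CIT1 at 16.2 (15.8 to 16.5). FUM1 had 13.3 (13.0 to 13.7), IDH1 13.1 (12.8 to 13.5) and KGD1 10.1 (9.91 to 10.3). KGD2 had 7.20 (6.96 to 7.45), LSC2 7.07 (6.82 to 7.32) and MDH1 5.47 (5.22 to 5.73). LSC1 and CIT1, FUM1 and IDH1, and KGD2 and LSC2 could not be ordered within their intervals. All 10 lay above the median gene, at 3.36 reads per codon.

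**Figure D1:**
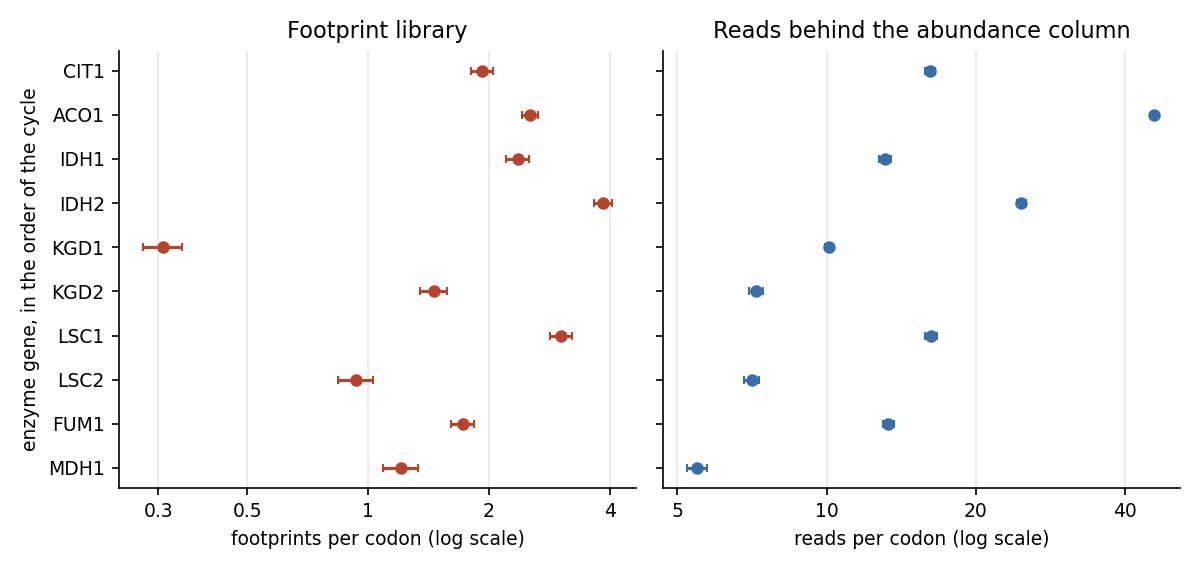
Footprints per codon (left, log scale) and reads per codon (right, log scale) of the 10 enzyme genes, listed from top to bottom in the order of the cycle. Points are values of 1 library each and bars are exact Poisson 95% intervals for counting error; KGD1 stands lowest on the left at 0.307 and near the middle on the right at 10.1.

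Within the complexes, the subunits did not have equal footprint densities. IDH1 had 0.612 times the footprints per codon of IDH2 (0.562 to 0.667) and 0.531 times the reads per codon (0.513 to 0.550), so it was below IDH2 in both measures, and less so in footprints, by more than counting error. LSC1 had 3.25 times the footprints per codon of LSC2 (2.89 to 3.66) and 2.30 times the reads per codon (2.20 to 2.40). KGD1 and KGD2 ran in opposite directions. KGD1 had 0.211 times the footprints per codon of KGD2 (0.184 to 0.242) but 1.40 times its reads per codon (1.35 to 1.46).

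LPD1, the dihydrolipoamide dehydrogenase that the 2-oxoglutarate and pyruvate dehydrogenase complexes share, had 1.93 footprints and 15.3 reads per codon. KGD1 had 0.159 times its footprint density (0.140 to 0.181) and KGD2 0.754 times (0.683 to 0.833). KGD4, a small subunit that anchors LPD1 in the complex, had 1.80 footprints and 7.81 reads per codon. Succinate dehydrogenase, the step between succinyl-CoA ligase and fumarase, also had unequal densities: 0.286 footprints per codon for the flavoprotein SDH1, 0.910 for the iron-sulfur protein SDH2, and 2.82 and 2.07 for the membrane anchors SDH3 and SDH4. Their reads per codon were 3.18, 4.14, 11.2 and 8.63 in the same order of genes. The coding lengths in that order were 641, 267, 199 and 182 codons.

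The isozymes of the members were set beside them per length. CIT1 had 0.689 times the footprints per codon of CIT2 (0.632 to 0.75), the peroxisomal citrate synthase of the glyoxylate cycle, and 0.524 times its reads per codon (0.509 to 0.538). MDH1 had 1.75 times the footprints per codon of the cytosolic MDH2 (1.5 to 2.06), with 0.894 times its reads per codon (0.841 to 0.951). Against the peroxisomal MDH3, MDH1 had 0.697 times the footprints per codon (0.613 to 0.793) and 0.699 times the reads per codon (0.658 to 0.742). CIT3 was not analysed here.

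The footprint to read ratio is a gene's share of all footprints over its share of all reads, so that 1 is the average of the library. The 10 enzymes together held 0.234% of footprints and 0.410% of reads, a pooled ratio of 0.571 (0.558 to 0.583). ACO1 alone had 0.0525% of footprints and 0.167% of reads, and without it the pooled ratio of the other 9 was 0.746 (0.728 to 0.765). KGD1 had the lowest ratio at 0.173 (0.154 to 0.194) and ACO1 the next at 0.315 (0.30 to 0.329). CIT1 was at 0.676 (0.631 to 0.724), FUM1 at 0.733 (0.681 to 0.787), LSC2 at 0.748 (0.672 to 0.831) and IDH2 at 0.885 (0.837 to 0.936). These 6 lay below 1 by more than counting error, where 55.1% of all genes tested had a ratio below 1. For IDH2 and LSC2 this holds with the abundance column read as undivided by length, which is how its values behave. Taken as already divided by length, as its header says, it gives log2 ratios of 0.52 and 0.07, above 0. IDH1 at 1.02 (0.947 to 1.10) and LSC1 at 1.06 (0.986 to 1.13) could not be told from 1, and KGD2 at 1.15 (1.06 to 1.25) and MDH1 at 1.25 (1.12 to 1.40) lay above it.

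All 10 enzymes had at least 100 footprints and 100 reads, the minimum that 2939 of the 4579 genes met. On the log2 scale their median ratio was -0.30, against -0.14 over the 2939 genes. More than 2-fold below the average lay 2 of 10, KGD1 at -2.53 and ACO1 at -1.67, where the share of all genes tested was 21.1%. More than 2-fold above lay 0 of 10, against 12.5% of all genes tested. Above the median gene lay 4 of 10, where the background is 50% by construction. In a list of 10 these counts lie near the background, and nothing about the enzymes as a group is read from them.

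Coding length moves with this ratio in the whole table (Spearman rho -0.853 across the 2939 genes) and did so among the enzymes, from MDH1 and LSC1, the shortest, to ACO1 and KGD1, the longest (rho -0.842 over 10 genes, which share both libraries). Each enzyme was therefore set beside genes whose coding length is within 10% of its own. KGD1 was above only 5 of 114 such genes, whose median log2 ratio was -1.88, and ACO1 above 47 of 207, with a median of -1.30. KGD2 was above 301 of 346 genes of its length (87.0%), where the median was -0.39, and MDH1 above 245 of 323 (75.9%). The other 6 were above between 35% (LSC2) and 55.4% (IDH1) of the genes of their length.

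**Figure D2:**
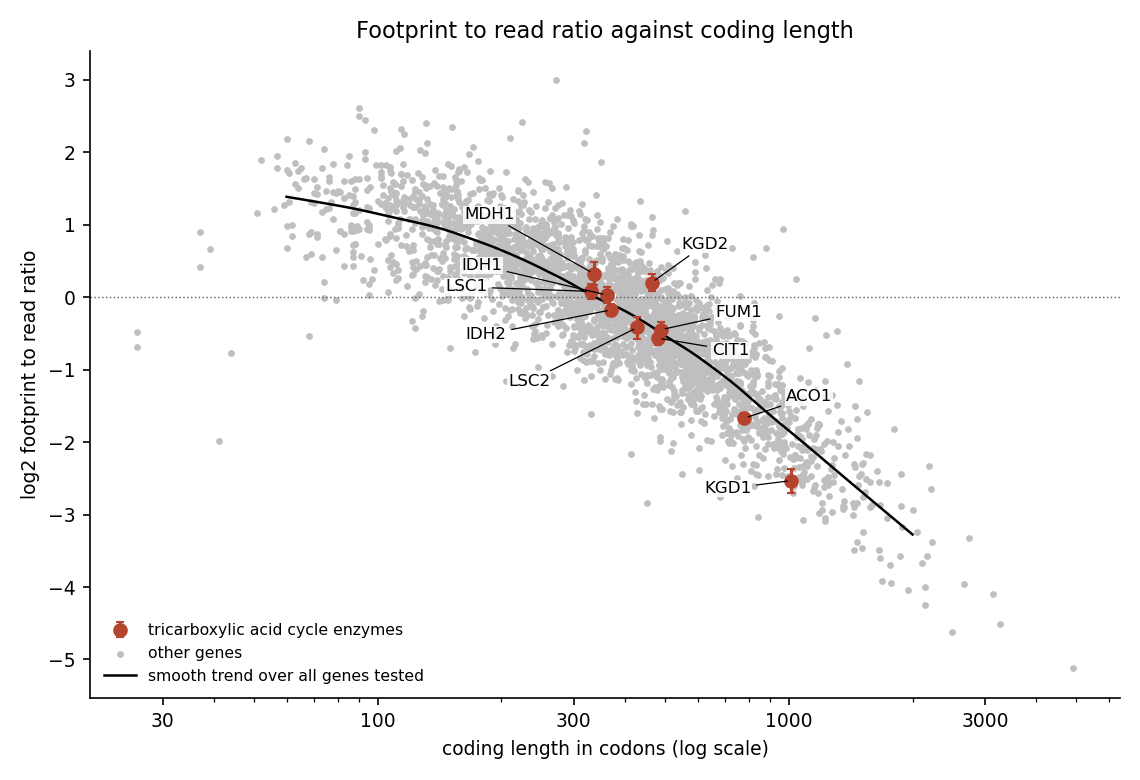
Log2 footprint to read ratio against coding length in codons (log scale) for the 10 enzymes (red, with 95% counting intervals) and for the other genes tested (grey); the black line is the smooth trend over the 2939 genes. KGD1 at -2.53 lies below the line and KGD2 at 0.20 above it.

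With a smooth trend on length subtracted, the spread of the 10 log2 ratios shrank to an SD of 0.35 between genes, against an SD of 0.91 without it. The largest departures that remained were those of the same complex, KGD1 at -0.66 and KGD2 at 0.61. ACO1 was at -0.35 and MDH1 at 0.31, and the other 6 lay between -0.13 (LSC2) and 0.10 (IDH1). After this subtraction 5 of 10 lay above 0, against 51.2% of all genes tested, and 0 of 10 were more than 2-fold away on either side, against 2.89% of all genes above and 2.35% below. The part of length in the low ratios of KGD1 and ACO1 was not tested beyond these values.

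The other cycle enzymes were counted in the same way. Of 13 listed, 11 were in the table and 10 had enough counts. Their median log2 ratio was -0.07, from SDH3 at 0.53 to SDH1 at -0.97, and 0 of 10 lay more than 2-fold from the average on either side. With the length trend subtracted, SDH3 was at -0.13 and SDH1 at -0.03. IDP1, the mitochondrial NADP-dependent isocitrate dehydrogenase, was at -0.45 and, with 4.91 footprints per codon, stood above every one of the 10 enzymes in footprint density. Among genes for pyruvate import, pyruvate dehydrogenase, pyruvate carboxylase and the malic enzyme MAE1, 9 of 10 had enough counts, and the median was -0.07. The highest was MPC1, a pyruvate carrier subunit of 131 codons, at 0.44. The lowest was the pyruvate carboxylase PYC2 at -2.99, a gene of 1181 codons. With the length trend subtracted, MPC1 was at -0.56 and PYC2 at -0.80. The acetyltransferase LAT1 of pyruvate dehydrogenase, the counterpart of KGD2, was at 0.30, and at 0.78 with the length trend subtracted.

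Carriers of citrate, dicarboxylates and 2-oxoglutarate had a median of -0.46 over the 5 of 7 with enough counts, from ODC1 at 0.44 to YHM2 at -0.65. With the length trend subtracted the carrier median was -0.51, and 1 of 5 lay above 0, against 51.2% of all genes tested. Of the regulators of the cycle's genes, 9 of 10 were in the table but only 3 had 100 footprints. These were HAP2 at 1.5, RTG2 at -1.14 and HAP1, a gene of 1503 codons, at -2.30. With the length trend subtracted, HAP2 was at 1.18, RTG2 at -0.36 and HAP1 at 0.38. HAP2 had 104 footprints and only 209 reads, so it met the minimum only because its ratio was high. Its value is thus bound to the filter, and nothing is read from it. HAP4, the glucose-repressed activating subunit of the HAP complex, had 60 footprints and 1551 reads, a ratio of 0.220 (0.167 to 0.285). The list of 4 genes drawn up for the glyoxylate cycle gives no value for that cycle, since its 1 gene in the table, ICL2, encodes a mitochondrial 2-methylisocitrate lyase of propionate breakdown.

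Beside the pathways on either side, the cycle enzymes had fewer footprints per codon. The median enzyme of the cycle had 1.82 footprints per codon, against 11.7 for the 17 glycolytic genes and 4.38 for the 34 genes of the respiratory chain and ATP synthase. Reads per codon had medians of 13.2, 102.0 and 13.0 in the same order, so cycle and respiratory genes were close in reads and apart in footprints. Over the genes with enough counts, which leave out 1 respiratory gene, the median log2 ratio was -0.30 for the cycle, 0.11 for glycolysis (TPI1 highest at 0.80, PFK1 lowest at -1.81) and 0.93 for the respiratory list (QCR10 highest at 1.84, ATP2 lowest at -0.74). The median lengths differed too, at 446 codons for the cycle, 438 for glycolysis and 139 for the respiratory genes. With the length trend subtracted, the medians were -0.01, 0.18 and 0.07. These differences between lists have no replicate check.

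**Figure D3:**
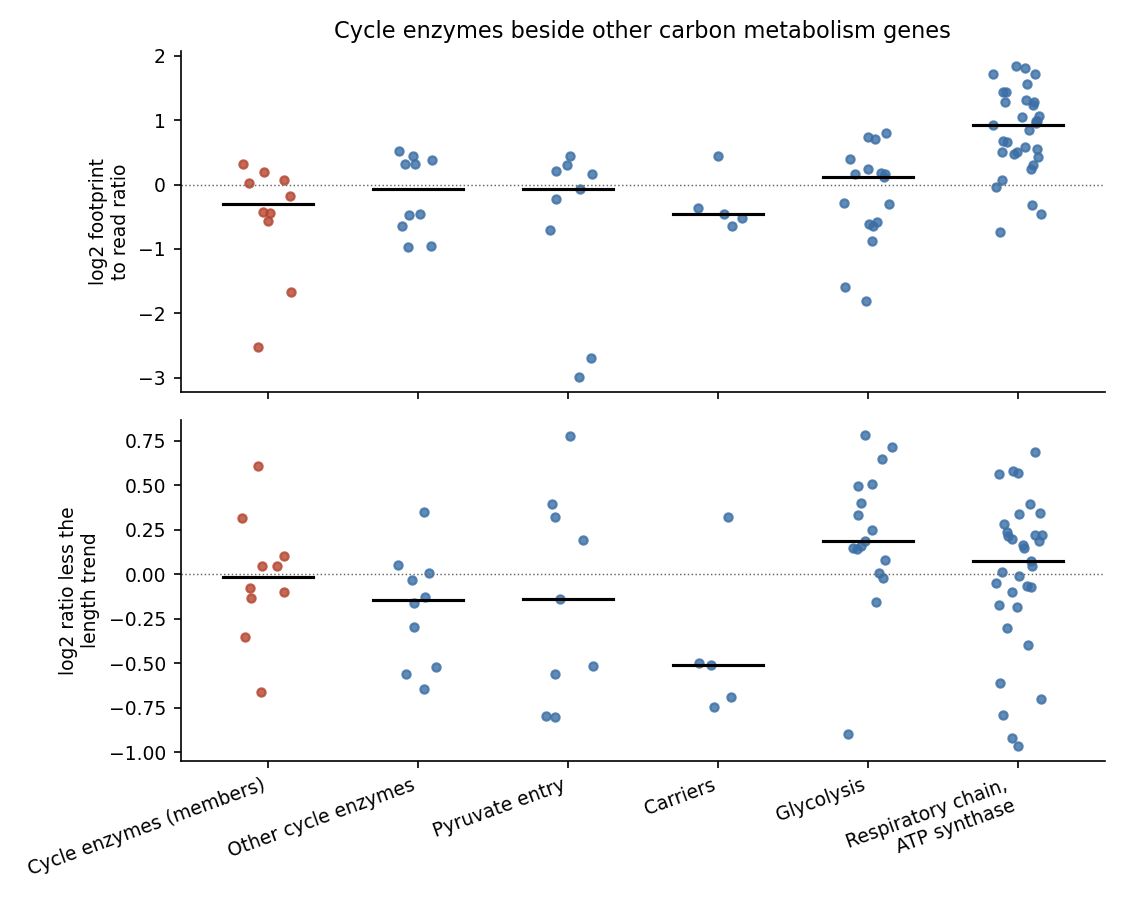
Log2 footprint to read ratio (top) and the same ratio less the smooth length trend (bottom), 1 point per gene with at least 100 footprints and 100 reads, for the 10 cycle enzymes (red) and 5 related lists (blue). Bars are list medians; the respiratory list, at a median of 0.93 above, drops to 0.07 below.

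The preferred codons are 23 that highly expressed yeast genes favour. They made up 69.9% of the sense codons of ACO1 and 66.8% of those of MDH1, against 53.2% in LSC2 and 54.4% in KGD1, and the other 6 lay between 56.2% (CIT1) and 61.7% (IDH1). All 10 enzymes were above the median of all genes, 45.4%, and all were below the median glycolytic gene, 89.9%. MDH1 had the fewest reads per codon of the 10 in spite of its second highest share of preferred codons.

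The table gives footprints by codon, summed over every place where a gene has that codon. A codon's value is the number of footprints per occurrence in a gene, relative to the mean over all codons of that gene, so that an average codon has a value of 1. The 38 sense codons that are not preferred include ATG, start codons among them, and TGG, neither of which has a synonym. Preferred codons had fewer footprints per occurrence than these 38 in all 10 enzymes, as they did in 85.9% of the other 2929 genes tested. Averaged over occurrences, they had a value of 0.874 in the enzymes, against 1.18 for the other codons, a difference of -0.31, or -0.20 with footprints per occurrence capped at the 90th percentile of each gene's codons. In the other genes the difference was -0.28 without the cap.

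The size of that contrast varied among the enzymes. MDH1 had the widest, with 197 footprints on 223 preferred codons and 204 on 111 others, a ratio of 0.481 (0.393 to 0.588). Of those 204, 27 fell on its 6 ATG codons. LSC1 followed at 0.589 (0.518 to 0.669), with 459 footprints on 196 preferred codons and 529 on 133 others, then LSC2 at 0.608 (0.494 to 0.746). Of the 529 in LSC1, 91 fell on 4 CCG codons. The ratios of single genes are given without the cap, so a few dense codons can weigh on them. KGD1 was at 0.708 (0.563 to 0.890), IDH2 at 0.713 (0.642 to 0.793), KGD2 at 0.768 (0.658 to 0.896) and ACO1 at 0.817 (0.744 to 0.897). FUM1 at 0.868 (0.756 to 0.998) lay just below 1, while the intervals of IDH1 at 0.891 (0.775 to 1.02) and CIT1 at 0.907 (0.795 to 1.04) included it. The median of the 10 was 0.741, and that of the other genes 0.758.

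**Figure D4:**
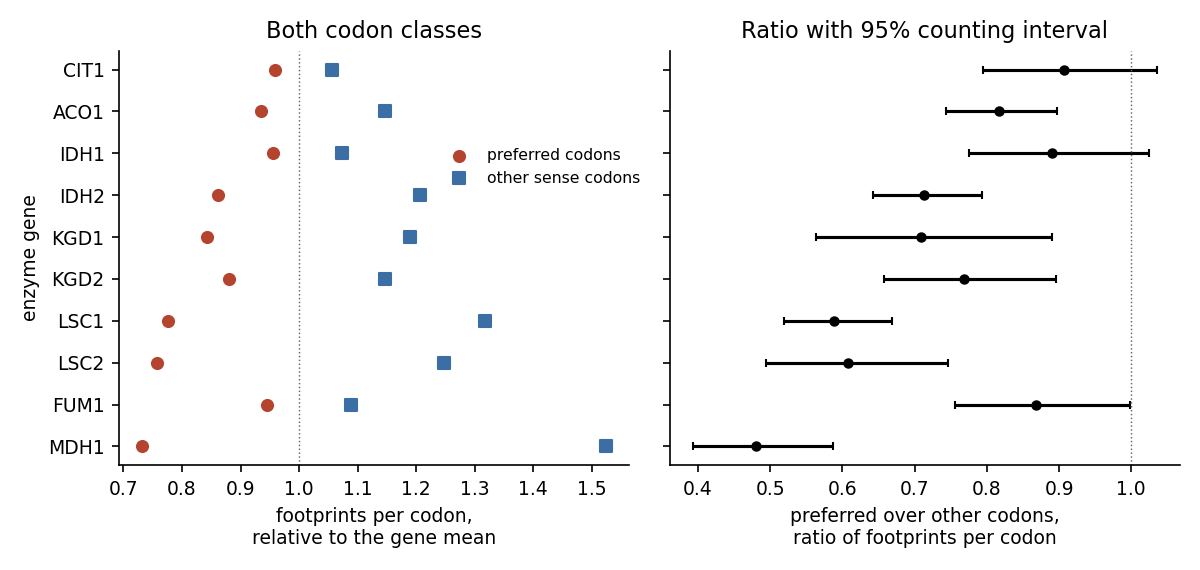
Left, footprints per codon relative to the gene mean for preferred codons (red circles) and other sense codons (blue squares) in each enzyme gene; right, the ratio of preferred over other codons with its exact 95% counting interval. MDH1 has the lowest ratio at 0.481 and CIT1 the highest at 0.907.

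Of the 61 sense codons, the rare proline codon CCG had the highest value over the 10 enzymes, at 5.50, against 4.80 in the other genes. With the same cap its value in the enzymes was 2.29. It occurs 11 times in 6 of the enzymes. LSC1 had 91 footprints on 4 CCG codons, 7.54 times its gene mean (6.07 to 9.26) and 9.14% of all its footprints. KGD2 had 31 on 2 codons, 10.6 times its mean (7.23 to 15.1). IDH1 had 9 on 1 codon, at 3.82 (1.75 to 7.25), and MDH1 had 5 on 1 codon, at 4.15 (1.35 to 9.68). LSC2 had 1 on 1 codon, at 1.08 (0.0272 to 5.99), and KGD1 had 0 on 2, which at the limit of 3 counts allows up to 4.88 times its sparse gene mean, so neither can be told from the value in the other genes.

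Proline as a whole was the amino acid with the most footprints per codon in the enzymes, at 1.73, against 1.89 in the other genes, and 9 of 10 enzymes had more than their mean on it, as did 82.5% of the other genes that have proline codons. IDH2 was the highest, with 204 footprints on 20 proline codons, a value of 2.65 (2.30 to 3.04). Of these, 146 fell on the 11 CCT codons, at 3.45 (2.91 to 4.05), which is 10.3% of all IDH2 footprints on 2.97% of its codons. Its partner IDH1 had 33 footprints on 13 proline codons, at 1.08 (0.741 to 1.51), and only 7 on 7 CCT codons, at 0.424 (0.171 to 0.874). KGD2 stood at 2.48 (2.01 to 3.04), LSC1 at 2.34 (1.95 to 2.78), MDH1 at 2.23 (1.66 to 2.93), LSC2 at 2.08 (1.42 to 2.96) and FUM1 at 2.02 (1.59 to 2.54). CIT1 was at 1.79 (1.41 to 2.23), ACO1 at 1.47 (1.25 to 1.72) and KGD1, with 11 footprints on 51 proline codons, at 0.702 (0.350 to 1.26). By codon, CCC had a value of 2.16 in the enzymes, CCT 1.85 and CCA, the preferred one, 1.28.

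After CCG, the highest values were those of the arginine codon CGG (3.25, from 1 footprint on 1 codon of KGD1), the leucine codon CTG (3.09), the alanine codon GCG (2.33) and CCC. CTG was above the gene mean in 7 of 10 enzymes and in 71.4% of the other genes that have it, where its value was 2.61. With the cap its value in the enzymes was 2.02. IDH2 had 36 footprints on 2 CTG codons, 4.67 times its mean (3.27 to 6.47), and ACO1 had 53 on 6, at 3.49 (2.61 to 4.56). CGA, an arginine codon that was among the highest in the other genes at 3.76, occurs once in the enzymes, in IDH2, with 4 footprints and a value of 1.04 (0.283 to 2.66).

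The lowest values belonged to the valine codon GTA (0.393), the phenylalanine codon TTC (0.452), the histidine codon CAC (0.505), the valine codon GTC (0.523) and the cysteine codon TGT (0.526). In the 7 enzymes with 500 or more footprints GTA was lower, at 0.199, while TTC stood at 0.689 and TGT at 0.847. On TTC, KGD1 had 0 footprints over 27 codons, which at the limit of 3 counts allows a value of up to 0.361. ACO1 had 14 over 20, at 0.276 (0.151 to 0.464). CIT1 and FUM1 were the exceptions, with 25 footprints over 7 TTC codons, at 1.86 (1.2 to 2.74), and 29 over 11, at 1.54 (1.03 to 2.20). Valine as a whole had a value of 0.719 in the enzymes, against 0.767 in the other genes, and was below the gene mean in all 10 enzymes and in 74.5% of the other genes that have it.

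Across the sense codons, values in the enzymes and in the other genes had a Spearman rho of 0.662 over 61 codons, which share the library and the base content of their codons, and 46 of 61 lay on the same side of 1 in both.

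**Figure D5:**
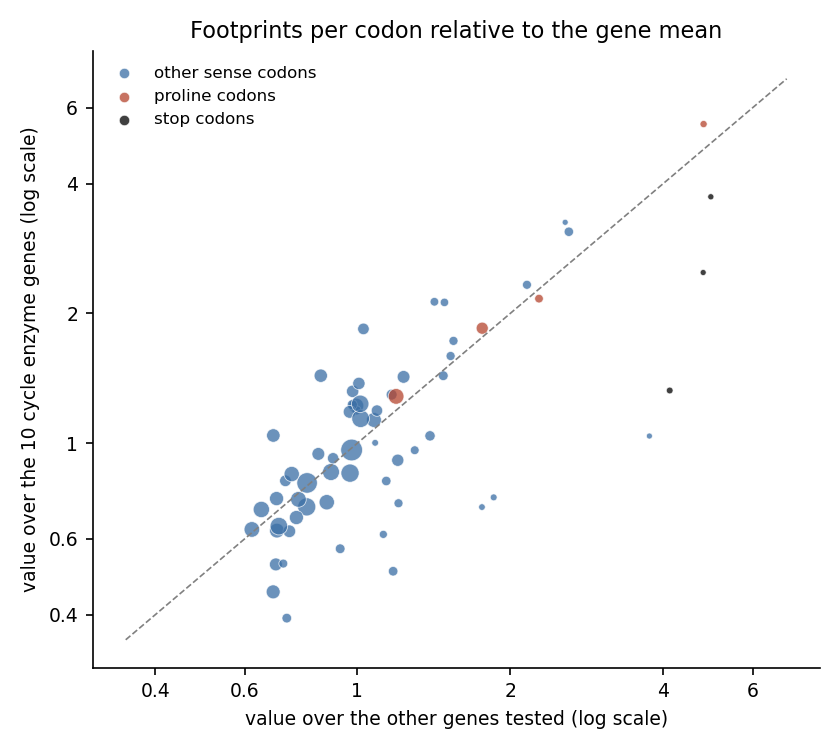
Codon values, as footprints per occurrence relative to the gene mean, over the 10 enzyme genes (vertical, log scale) and over the other 2929 genes tested (horizontal, log scale), 1 point per codon with its area growing with the occurrences in the enzymes; the dashed line marks equal values. The highest proline point is at 5.50 against 4.80, and the 3 stop codons lie under the line.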

How the data were processed

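Per the submitters' processing notes, reads were handled with cutadapt, Bowtie2, HISAT2 and HTSeq on sacCer3; the sources used here do not give their versions or settings, strand use, or how reads matching several places were treated. The deposited footprint columns hold raw counts per gene and codon, per the file headers. The 64 columns headed "total" hold codon occurrences: 4575 genes have 1 stop codon in them. The deposited FPKM column behaves as CPM values made by the authors without division by length, since 100% of values are whole multiples (within 0.001 reads) of 0.0459 CPM, and the values were turned into reads with that step. Which ribosomal site a counted codon stands for is not stated.

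Intervals are exact at 95%, conditional binomial (Clopper-Pearson) for ratios and Poisson for densities. The trend on length is LOWESS over 30% of the genes (statsmodels 0.14.6, scipy 1.17.1, Python 3.11.15). Preferred codons were GCT and GCC for alanine, AGA for arginine, AAC for asparagine, GAC for aspartate, TGT for cysteine, CAA for glutamine, GAA for glutamate, GGT for glycine, CAC for histidine, ATT and ATC for isoleucine, TTG for leucine, AAG for lysine, TTC for phenylalanine, CCA for proline, TCT and TCC for serine, ACT and ACC for threonine, TAC for tyrosine, and GTT and GTC for valine. Calculations were tested on simulated data. With 1 library of each kind no test was possible. Members, lists, tests and settings were chosen with earlier results of these data known. All 10 members were named, with the highest and lowest tested gene of each list, the listed complex subunits and isozymes, and the 5 highest and lowest codons; other genes and codons named were chosen after their values were seen. Symbols and positions are those of RefSeq assembly R64 (the release named sacCer3 at UCSC), whose gene table matched 4578 identifiers. Coding and protein sequences were not used here. 1 gene of the planned list of other cycle enzymes is not reported here and was left out of that list's counts.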

Additional observations from a re-analysis of the deposited data

How the results depend on the processing

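No paired analysis was possible because each kind of library has 1 sample, and for that reason no library could be left out. The median log2 ratio of the 10 enzymes was -0.30. It was -0.16 centred on the median gene, -0.015 with the smooth length trend subtracted, and -0.92 with a minimum of 1000 counts, which left IDH2 and ACO1. With the abundance column read as divided by length the median was 0.30. That reading follows the column's header but not how its values behave. The number more than 2-fold below was 2; it was 1 with the minimum of 1000 and 0 with the length trend subtracted. The number more than 2-fold above was 0, and 1 (MDH1) with the column read as divided by length. The number above the median gene was 4, but 7 with no minimum, because the median then moves, and 0 with the minimum of 1000. The difference between preferred and other codons of -0.31 was -0.20 with counts capped at the 90th percentile and -0.23 in the 7 enzymes with 500 or more footprints. Leaving out stop codons or the top codon of each gene kept the 3 subunit ratios and the 10 gene ratios within their intervals. The value of CCG was 2.29 with the cap and 6.82 for footprints summed over the enzymes. Of the 100 alternative values of single genes and codons, 36 moved beyond counting error. The log2 ratio changed sign for 3 enzymes: IDH2 (0.52) and LSC2 (0.07) with the column read as divided by length, and FUM1 (0.046) with the length trend subtracted. For 5 codon values the move was over 1.5 times: CCG and CTG (2.02) with the cap, and GTA (0.199), TTC (0.689) and TGT (0.847) in the 7 enzymes with 500 or more footprints. Depth limits KGD1 most, with 312 footprints over 1015 codons.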

Other observations

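Stop codons held 31 footprints on the 10 enzymes, a value of 1.92 relative to the gene means, against 4.50 in the other genes tested. LSC2 had 6 footprints on its TAA, 6.45 times its gene mean (2.37 to 14), KGD2 had 7 on TGA, at 4.81 (1.93 to 9.90), and LSC1 had 8 on TGA, at 2.65 (1.14 to 5.22). CIT1, IDH2, KGD1 and FUM1 had 0 on TAA. For IDH2, the gene with the densest footprints, that allows a value of up to 0.779 at the limit of 3 counts. For CIT1 it allows up to 1.56, for FUM1 up to 1.75 and for KGD1 up to 9.76, so at this depth no low value can be read for these genes. ACO1 with 5 (1.97, 0.641 to 4.61), IDH1 with 2 (0.848, 0.103 to 3.07) and MDH1 with 3 on TAG (2.49, 0.513 to 7.27) could not be told from their gene means.

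Among 56 sense codons that occur once in an enzyme, and so mark a single place, the highest value was that of CTA in LSC1, with 21 footprints against a gene mean of 3.02, or 6.96 times it (4.31 to 10.6). CTA has a value of 1.03 in the other genes. GTA in MDH1 followed with 6 footprints, 4.98 times its mean (1.83 to 10.8), although GTA was the lowest sense codon over the 10 enzymes. AGG in ACO1 had 11 footprints (4.34, 2.17 to 7.77), CGT in LSC2 had 4 (4.30, 1.17 to 11.0), and CCG and TAT in MDH1 had 5 each (4.15, 1.35 to 9.68). Of the 56, 1 (1.79%) was above 5 times its gene mean, against 7.90% of 18580 such codons in the other genes. Of the same 56, 19 (33.9%) had no footprint, against 48.4% in the other genes. Median densities were 1.82 footprints per codon in the enzymes and 0.871 in the other genes. On a sparse gene a single footprint can pass 5 times the mean. Both shares thus depend on density, and neither is read as a trait of the enzymes.

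Of the sense codons, 55 had at least 20 occurrences in the enzymes, a limit chosen after the values were seen. Among these, CAC departed most from the other genes, at 0.505 against 1.18. Summed over the enzymes, CAC had 39 footprints where the gene means give 63.0, a value of 0.619 (0.44 to 0.85). In the 7 enzymes with 500 or more footprints CAC stood at 0.698. CTA went the other way, at 1.84 against 1.03, and was above the gene mean in 8 of 10 enzymes and in 40.9% of the other genes that have it. These codons were picked for their difference from many, and none has a replicate.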
